A study of Mus musculus with 96 samples.

Results

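Cells build purine and pyrimidine nucleotides from small precursors by de novo synthesis. In the purine route, PPAT commits phosphoribosyl pyrophosphate to the pathway, GART, PFAS, PAICS, ADSL and ATIC carry the ring to inosine monophosphate, and IMPDH2 turns that product toward guanine nucleotides. In the pyrimidine route, CAD carries out the opening steps, DHODH oxidizes dihydroorotate in the inner mitochondrial membrane and passes its electrons to ubiquinone, and UMPS makes uridine monophosphate. DHODH thereby ties pyrimidine synthesis to the electron transport chain (ETC), and aspartate is a substrate of both routes. The expression of these 10 genes was followed in C2C12 cells, a mouse myoblast line that forms myotubes in low serum, after inhibition of the mitochondrial ETC or ATP synthase. The 10 genes were chosen by name from the 54150 rows of the gene table, each was found in 1 row, and each passed the filter on low counts in all 6 models.

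RNA-seq covered 96 samples in 35 conditions, with 2 or 3 replicates in each. Proliferating myoblasts carried a doxycycline-inducible luciferase (control), LbNOX, mitoLbNOX or NDI1 transgene and received 300 ng/ml doxycycline for 24 hr before treatment. LbNOX is a bacterial NADH oxidase that acts in the cytosol, mitoLbNOX is its mitochondrial form, and NDI1 is a yeast NADH dehydrogenase that can stand in for complex I. Treatments lasted 10 hr and were DMSO, 0.5 µM piericidin (complex I), 0.5 µM antimycin (complex III) or 1 µM oligomycin (ATP synthase), except that chloramphenicol, which blocks mitochondrial translation, was given at 20 µg/ml for 48 hr with uridine, beside its own 48 hr DMSO samples. Post-mitotic cells had spent 24 hr in low serum without a transgene. Myotubes had spent 4 days in low serum, either untransduced or after adenovirus encoding GFP alone or GFP with LbNOX. Some untransduced myotubes received 0.5 µM BAM15, an uncoupler, or were held at 5% oxygen from the night before, each with or without oligomycin. Others received oligomycin together with piericidin. The medium had no pyruvate or uridine in the 10 hr treatments, and the labels do not say whether replicates came from separate cultures, so p-values measure the spread between these samples only.

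Sample totals ran from 6458295 to 15366745 estimated counts. All of the transgenes expected from the labels were counted, with at least 372 counts in each sample, and 0 counts were found for any transgene in a sample not labelled for it. Levels are given as CPM, counts scaled to library size (TMM). The summed CPM of 7 genes of differentiated muscle ran from 11.1 to 92.4 in the 45 myoblast samples and from 10837 to 15372 in the 42 myotube samples, and that of 7 proliferation genes from 871 to 1652 and from 56.2 to 214. The 6 markers of adipocytes, leukocytes, endothelium and epithelium summed to at most 12.2 CPM in any sample. The labels carry a code for each sample that was read here as a plate well. By that reading, the 3 DMSO samples of luciferase myoblasts, the reference for most comparisons in myoblasts, all lay in outer wells, whereas the samples of each inhibitor in these cells held at most 1 outer well.

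In the mouse genome (GRCm38), the 10 genes lie on 7 chromosomes. Ppat (ENSMUSG00000029246, chr5:76913249-76951578, minus strand) and Paics (ENSMUSG00000029247, chr5:76951307-76967509, plus strand) are divergent neighbors whose 5′ ends overlap in exons by 272 bases, at chr5:76951307-76951578. Reads from that stretch could not be assigned to a strand in these unstranded libraries. Exons of Umps, Gart and Impdh2 also overlap genes on the opposite strand, by 213 bases with Gm15829, by 1014 bases with Gm15964 and by 48 bases with Ndufaf3. RefSeq promoter windows of 300 bases, from 250 bases before the start site to 50 after it (GRCm38.p6), were matched for 8 of the 10 genes, Dhodh and Pfas being the others. They are shown here for the divergent pair, whose transcripts moved in opposite directions with piericidin, and for the remaining genes with an E-box. Capitals mark the E-box CACGTG, the core site of MYC and related factors, which reads the same on both strands.
Ppat, chr5:76951529-76951828, minus strand: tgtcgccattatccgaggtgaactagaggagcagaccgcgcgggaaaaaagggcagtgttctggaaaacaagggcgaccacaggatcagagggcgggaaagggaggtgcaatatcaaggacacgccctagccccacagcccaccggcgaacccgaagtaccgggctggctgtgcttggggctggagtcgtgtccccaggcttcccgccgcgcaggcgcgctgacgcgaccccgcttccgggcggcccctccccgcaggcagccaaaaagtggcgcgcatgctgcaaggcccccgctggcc
Paics, chr5:76951052-76951351, plus strand: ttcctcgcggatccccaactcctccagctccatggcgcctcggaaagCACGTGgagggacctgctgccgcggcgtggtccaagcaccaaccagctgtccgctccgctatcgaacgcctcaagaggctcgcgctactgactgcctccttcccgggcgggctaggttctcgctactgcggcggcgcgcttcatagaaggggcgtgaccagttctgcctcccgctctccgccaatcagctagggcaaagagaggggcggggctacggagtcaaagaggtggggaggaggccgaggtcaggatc
Atic, chr1:71556906-71557205, plus strand: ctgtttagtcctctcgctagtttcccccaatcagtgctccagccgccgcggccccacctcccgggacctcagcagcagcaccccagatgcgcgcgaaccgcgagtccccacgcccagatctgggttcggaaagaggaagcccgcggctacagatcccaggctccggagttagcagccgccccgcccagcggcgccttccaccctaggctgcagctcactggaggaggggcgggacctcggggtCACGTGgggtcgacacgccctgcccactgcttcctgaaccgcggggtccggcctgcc
Impdh2, chr9:108560186-108560485, plus strand: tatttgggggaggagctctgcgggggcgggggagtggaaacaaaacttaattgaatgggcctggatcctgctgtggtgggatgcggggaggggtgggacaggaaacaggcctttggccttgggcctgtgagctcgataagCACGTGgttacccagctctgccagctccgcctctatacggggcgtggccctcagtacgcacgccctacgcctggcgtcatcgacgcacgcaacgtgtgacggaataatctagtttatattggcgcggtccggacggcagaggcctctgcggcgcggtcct
The E-box was in 3 of the 8 windows, 203 bases before the start of Paics, 7 before that of Atic and 110 before that of Impdh2, and in 7.15% of 32851 mouse promoter windows of the same length. An E2F core (TTTNNCGC, either strand) was in 1 of the 8, with 2 matches in Ppat, against 5.17% of all windows. The ATF4 core TGATGNAA, searched on both strands, was in 0 of the 8 and in 3.97% of all windows. CCAAT, on either strand, was in 4 of the 8 and in 37.4% of all windows, and the palindromic NRF1 site was in 0 of the 8 and in 0.971% of all windows. These matches describe letters in the windows and not binding.

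All 10 genes were expressed at lower levels in post-mitotic cells than in proliferating myoblasts. Under DMSO, all 10 fell from myoblasts to cells after 24 hr in low serum, and all 10 fell from myoblasts to myotubes, at an adjusted p under 0.05 in the quasi-likelihood F test of edgeR. Over all 12766 genes tested, 32.3% were lower at 24 hr and 33.7% were lower in myotubes. The myotube samples were all below the myoblast samples for the 10 genes and for 36.7% of all genes. The median log2 fold change of the 10 was -1.36 at 24 hr and -1.39 in myotubes, beside medians of -0.00153 and 0.04 over all genes. The myoblasts carried luciferase, received doxycycline and grew in 10% fetal bovine serum. The other cells had no transgene or doxycycline, were grown to confluence in 20% fetal bovine serum and were then held in 2% horse serum. State, transgene, doxycycline, serum and confluence cannot be told apart in these comparisons, nor can fewer expressing cells and less RNA per cell.

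Pfas, which makes formylglycinamidine ribonucleotide in the purine route, had the lowest myotube level relative to myoblasts. Its level was 94.5, 96.2 and 94.1 CPM in the myoblast samples, 22.7, 22.2 and 25.2 after 24 hr of low serum and 13.9, 14.6 and 16.2 in myotubes. The 3 sets of samples did not overlap, and the log2 fold change from myoblasts to myotubes was -2.63 (SE 0.08, edgeR adjusted p = 1.01e-21). Cad fell from 107, 112 and 107 CPM in myoblasts to 31.4, 32.7 and 26.9 in myotubes, a log2 fold change of -1.80 (SE 0.10, edgeR adjusted p = 7.68e-16). Umps fell by 1.77 on the log2 scale (SE 0.09, edgeR adjusted p = 3.64e-17) and Dhodh fell by 0.75 on the log2 scale (SE 0.15, edgeR adjusted p = 0.000109). Dhodh, the gene whose product feeds the ETC, had 19.4, 16.2 and 18.6 CPM in myoblasts and 7.72, 11.7 and 11.8 in myotubes. Paics and Adsl, the enzymes that add aspartate and release fumarate, were among the least reduced, at -0.56 (SE 0.04, edgeR adjusted p = 4.94e-12) and -0.59 (SE 0.06, edgeR adjusted p = 6.74e-10). Between 24 hr and 4 days of low serum, 2 of the 10 fell further, where 35.6% of all genes differed. Pfas fell by 0.61 on the log2 scale (SE 0.08, edgeR adjusted p = 1.29e-06) and Paics fell by 0.26 on the log2 scale (SE 0.04, edgeR adjusted p = 4.11e-05). Cad, at -0.23 (SE 0.10, edgeR adjusted p = 0.0712), was called lower with DESeq2 size factors (-0.26), with DESeq2's test (-0.26) and with only the groups compared (-0.25), and Umps without the samples numbered 3 (-0.35).

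**Figure D1:**
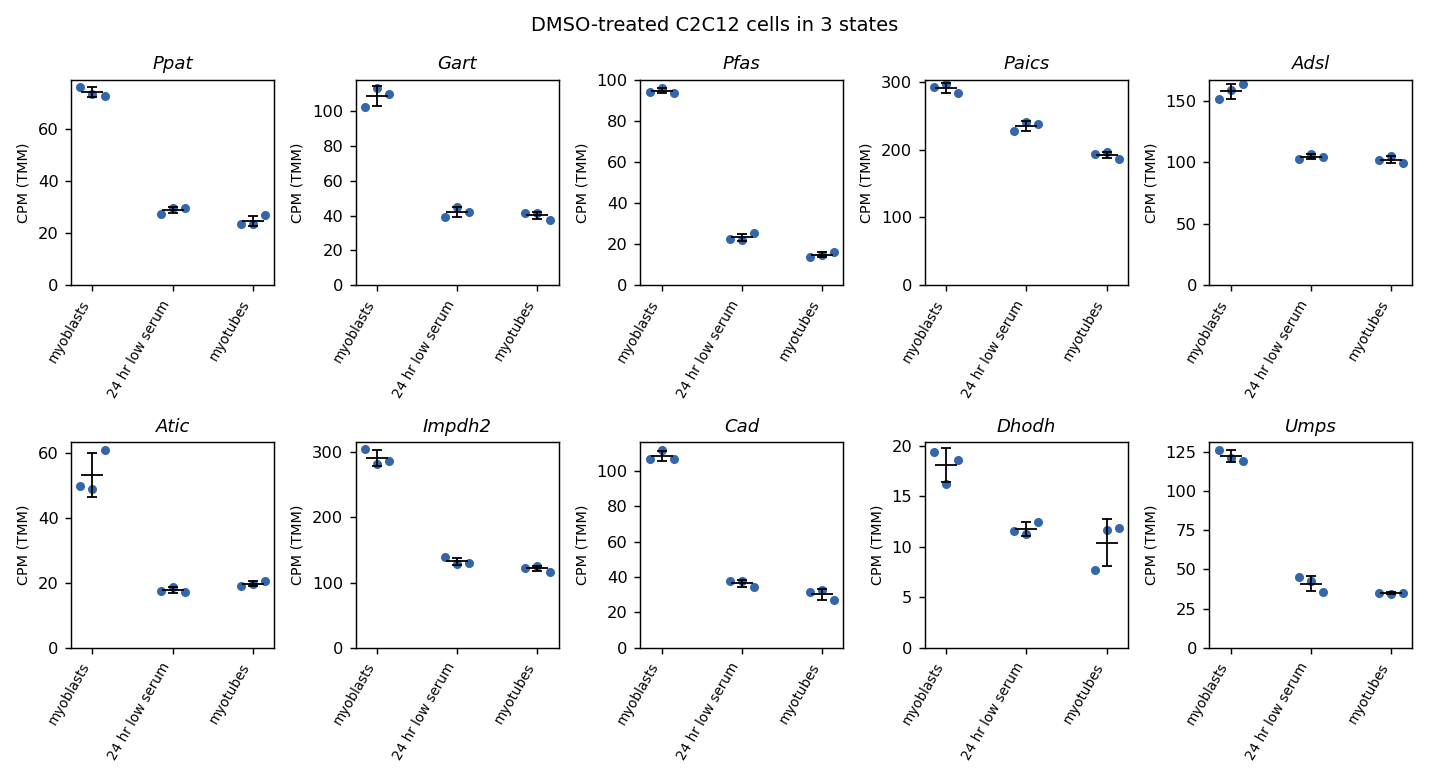
Level (CPM, TMM-scaled; vertical axes start at 0) of each gene in DMSO-treated luciferase myoblasts, cells after 24 hr in low serum and myotubes. Points are samples (n = 3 per state) and bars are the mean ± SD; in all 10 panels the 3 myoblast samples lie above the 3 myotube samples, as for 36.7% of all genes.

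Per kilobase of the principal transcript, the order of the genes was similar in the 3 states. In myoblasts, Impdh2 was highest, at 157 ± 6.84 CPM per kb (SD, n = 3), followed by Paics, at 117 ± 2.75, and Adsl, at 42.5 ± 1.63. Atic and Ppat overlapped, at 18.7 ± 2.37 and 18.6 ± 0.468, as did Cad and Pfas, at 15.2 ± 0.402 and 14.9 ± 0.178. Dhodh was lowest, at 8.85 ± 0.82. In myotubes Paics, at 77.4 ± 1.91, stood above Impdh2, at 65.5 ± 2.4, and Pfas had the lowest level, at 2.34 ± 0.182.

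In control myoblasts, inhibition of complex I raised most of the genes and lowered Paics. Piericidin raised 7 of the 10 (Cad, Dhodh, Umps, Ppat, Adsl, Atic and Impdh2) and lowered 1 (Paics), where 30.9% of the 11981 genes tested were higher and 30.8% lower. The median log2 fold change of the 10 was 0.35, beside -0.00368 over all genes. All 3 pyrimidine genes rose. Dhodh went from 19.4, 16.2 and 18.6 CPM with DMSO to 24.8, 28.3 and 24.7 with piericidin, a log2 fold change of 0.56 (SE 0.10, edgeR adjusted p = 2.74e-05). Cad and Umps rose by 0.44 (SE 0.06, edgeR adjusted p = 6.81e-07) and 0.32 (SE 0.07, edgeR adjusted p = 0.000102). In these pyrimidine genes every piericidin sample was above every DMSO sample.

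The purine genes split. Ppat, the committing enzyme, rose from 76.2, 73.3 and 72.7 CPM to 107, 103 and 108, by 0.55 (SE 0.08, edgeR adjusted p = 3.46e-07) on the log2 scale. Its divergent neighbor Paics fell from 292, 297 and 283 CPM to 156, 164 and 152, with a log2 fold change of -0.85 (SE 0.06, edgeR adjusted p = 2.81e-14). The groups did not overlap for either gene. Atic, which closes the purine ring, rose by 0.56 (SE 0.07, edgeR adjusted p = 1.52e-07), Adsl by 0.38 (SE 0.05, edgeR adjusted p = 2.39e-07) and Impdh2 by 0.22 (SE 0.05, edgeR adjusted p = 0.000128). Gart and Pfas did not pass the test, at -0.08 (SE 0.07, edgeR adjusted p = 0.336) and -0.13 (SE 0.06, edgeR adjusted p = 0.0704). The samples of Pfas did not overlap, with 84.1, 85.9 and 84.4 CPM with piericidin, and Pfas was called with only the groups compared (-0.15). Each call was recomputed under alternative settings, among them leaving out every sample with a given replicate number in its title. The call for Impdh2 was lost without the samples numbered 2 (0.14).

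Antimycin raised 5 genes (Cad, Ppat, Adsl, Atic and Impdh2) and lowered 3 (Gart, Paics and Pfas), against 32.1% of all genes higher and 31.1% lower. Gart, a trifunctional purine enzyme, went from 102, 114 and 109.9 CPM to 77.2, 71.7 and 67.9, a log2 fold change of -0.54 (SE 0.07, edgeR adjusted p = 4.06e-08). Paics, with 171, 154 and 164 CPM, fell by 0.79 on the log2 scale (SE 0.05, edgeR adjusted p = 1.69e-13), and Pfas fell by 0.45 on the log2 scale (SE 0.06, edgeR adjusted p = 3.2e-07). In each of them the antimycin samples were all below the DMSO samples. Among the pyrimidine genes, Cad rose by 0.47 (SE 0.06, edgeR adjusted p = 2.06e-07), whereas Dhodh and Umps had values of 0.03 (SE 0.11, edgeR adjusted p = 0.841) and -0.03 (SE 0.07, edgeR adjusted p = 0.738). Atic, at 0.18 (SE 0.08, edgeR adjusted p = 0.0385), kept its call under 2 of 9 alternatives and lost it with DESeq2 size factors (0.17), without the filter (0.19), with DESeq2's test (0.17), with plate position in the model (0.17), with only the groups compared (0.15) and without the samples numbered 1 or 2 (0.10 and 0.10). The call for Adsl was lost with only the groups compared (0.16) and without the samples numbered 1 or 2 (0.10 and 0.10), and those for Ppat and Impdh2 without the samples numbered 2 (0.19 and 0.13).

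Oligomycin raised 5 genes (Cad, Dhodh, Gart, Adsl and Atic) and lowered 2 (Umps and Paics), against 24.5% of all genes higher and 26.3% lower. Adsl rose from 151, 158 and 163 CPM to 230.2, 249 and 243, by 0.62 (SE 0.05, edgeR adjusted p = 1.59e-11). Gart rose by 0.35 (SE 0.07, edgeR adjusted p = 6.16e-05), to 136, 144 and 131 CPM, above every DMSO sample. Paics fell by less than with the ETC inhibitors, with a log2 fold change of -0.26 (SE 0.05, edgeR adjusted p = 0.000149). The call for Umps, -0.18 (SE 0.07, edgeR adjusted p = 0.0208), was lost with plate position in the model (-0.14) and without the samples numbered 1 or 3 (-0.16 and -0.20).

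The inhibitors were also compared directly, since the DMSO samples are shared by the comparisons above. Between antimycin and piericidin, 7 of the 10 genes differed, all lower with antimycin, where 37.2% of all genes differed. The log2 difference was -0.53 (SE 0.11, edgeR adjusted p = 0.000153) for Dhodh, -0.47 (SE 0.07, edgeR adjusted p = 1.92e-06) for Gart and -0.35 (SE 0.07, edgeR adjusted p = 9.13e-05) for Umps. Cad, Paics and Impdh2 did not pass, at 0.03 (SE 0.06), 0.07 (SE 0.06) and -0.01 (SE 0.05). Between antimycin and oligomycin 9 of the 10 differed (50% of all genes), and Gart differed most, at -0.89 (SE 0.07, edgeR adjusted p = 3.01e-12). Between piericidin and oligomycin 7 differed (39.2%), with Umps at 0.51 (SE 0.07, edgeR adjusted p = 3.1e-07) and Ppat at 0.47 (SE 0.08, edgeR adjusted p = 1.04e-05) higher with piericidin, and Paics, at -0.59 (SE 0.06, edgeR adjusted p = 4.98e-10), lower. Between antimycin and oligomycin, Umps kept its call under 2 of 9 alternatives and lost it with DESeq2 size factors (0.13), without the filter (0.18), with DESeq2's test (0.13), with only the groups compared (0.13) and without the samples numbered 1, 2 or 3 (0.08, 0.19 and 0.13). In the same comparison Ppat lost its call with DESeq2's test (0.18), with only the groups compared (0.18) and without the samples numbered 2 or 3 (0.16 and 0.12), and Impdh2 without the samples numbered 2 (0.18). Between antimycin and piericidin the call was lost for Ppat without the samples numbered 1 (-0.23) and for Adsl without the samples numbered 3 (-0.14). Pfas between piericidin and oligomycin lost its call without the filter (-0.13), with a replicate block (-0.15) and without the samples numbered 1, 2 or 3 (-0.18, -0.15 and -0.18). Cad was called against oligomycin with antimycin with plate position in the model (0.15) and without the samples numbered 1 (0.17) and with piericidin without the samples numbered 1 (0.20).

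**Figure D2:**
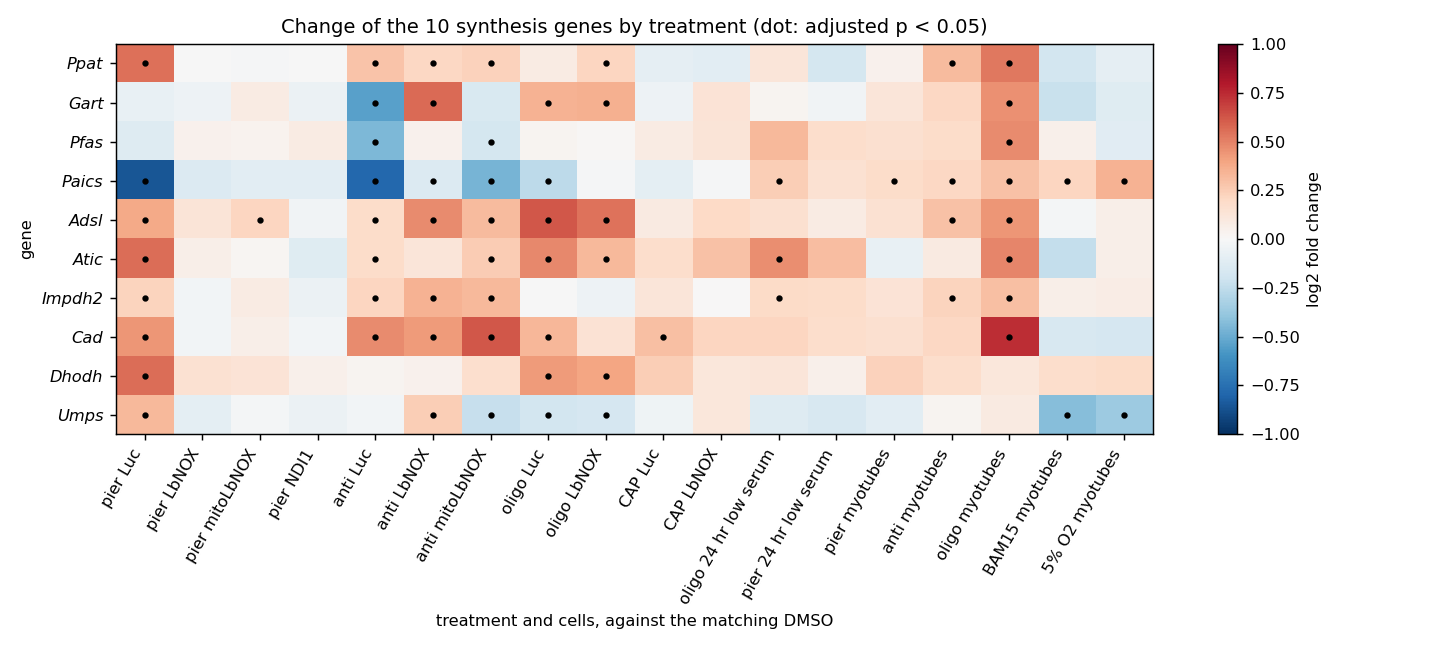
Log2 fold change (colour, -1 to 1) of each gene (rows) for each treatment against the matching DMSO samples (columns); dots mark an edgeR adjusted p under 0.05. Paics is lower with all 3 inhibitors in luciferase myoblasts and higher with all 3 in myotubes.

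The next question was whether the responses depended on the NADH balance, which LbNOX and mitoLbNOX shift toward NAD+. Under DMSO, 0 of the 10 genes were called against luciferase myoblasts in cells with LbNOX, mitoLbNOX or NDI1 (edgeR; 2.68%, 1.77% and 4.61% of all genes). At an unadjusted p under 0.05 there were 1, 0 and 2, and DESeq2's test called 0 in each. With piericidin, 0 of the 10 were called in LbNOX cells (8.87% of all genes), 1 in mitoLbNOX cells (11.2%) and 0 in NDI1 cells (0.00835%) by edgeR. Unadjusted, 2 passed 0.05 in LbNOX cells and 0 in NDI1 cells, and DESeq2 called 0 in both. The 1 was Adsl, at 0.21 (SE 0.05, edgeR adjusted p = 0.00547), which was lost without the samples numbered 1, 2 or 3 (0.20, 0.22 and 0.20), and Impdh2 was gained with plate position in the model (0.14). Paics had 288, 302 and 272 CPM with DMSO and 249.5, 258 and 265 with piericidin in LbNOX cells. That difference, -0.13 (SE 0.05, edgeR adjusted p = 0.127), was smaller than in the luciferase cells.

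The differences between responses were tested as interactions. The piericidin response differed from that of luciferase cells at 8 of the 10 genes in LbNOX cells (44.3% of all genes), at 6 in mitoLbNOX cells (42.8%) and at 8 in NDI1 cells (42.7%). For Paics the difference was 0.72 (SE 0.08, edgeR adjusted p = 5.43e-09) with LbNOX, 0.75 (SE 0.08, edgeR adjusted p = 2.8e-09) with mitoLbNOX and 0.75 (SE 0.09, edgeR adjusted p = 2.27e-08) with NDI1. For Ppat it was -0.55 (SE 0.11, edgeR adjusted p = 0.000111), -0.56 (SE 0.11, edgeR adjusted p = 0.000103) and -0.56 (SE 0.12, edgeR adjusted p = 0.000422) in the same order. Each value lay opposite in sign to the gene's response in luciferase cells. That response is subtracted to give the value, so the sign is not a separate result. Dhodh differed by -0.41 (SE 0.15, edgeR adjusted p = 0.0221) with LbNOX. Calls were lost when samples were left out. Without the samples numbered 2, 3 of the 8 were called with LbNOX, where Dhodh, Umps, Adsl, Atic and Impdh2 had -0.22, -0.30, -0.17, -0.32 and -0.20, and 4 of the 6 with mitoLbNOX, where Dhodh and Umps had -0.22 and -0.26. The NDI1 groups have 2 samples each, so that leaving out a number leaves 1 sample in each, which is assumed to vary like the other groups. With NDI1 2 of the 8 were then called without the samples numbered 2, Paics and Atic, while Cad, Dhodh, Umps, Ppat, Adsl and Impdh2 had -0.42, -0.24, -0.22, -0.45, -0.32 and -0.14. With LbNOX, Adsl was also lost without the samples numbered 1 (-0.22), and Dhodh and Impdh2 without those numbered 3 (-0.38 and -0.19). Dhodh with mitoLbNOX was lost without those numbered 3 (-0.47), and Dhodh was lost without the filter on low counts in all 3 lines (-0.43, -0.43 and -0.53) and with only the groups compared in NDI1 cells (-0.47). Gart and Pfas, which were not called with piericidin in luciferase cells, did not pass in any of the 3 lines, although Pfas in NDI1 cells, at 0.21 (SE 0.10, edgeR adjusted p = 0.0777), was called with only the groups compared (0.25). With mitoLbNOX, Adsl was called with only the groups compared (-0.18) and Impdh2 with plate position in the model (-0.13).

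Antimycin acted differently in LbNOX cells than in luciferase cells on the purine genes it had lowered. In LbNOX cells it raised 6 of the 10 and lowered Paics (46.1% of all genes called). Gart had 117, 109 and 102 CPM with DMSO and 166, 151 and 158 with antimycin in LbNOX cells, so that it rose by 0.57 (SE 0.07, edgeR adjusted p = 2.86e-08), whereas it had fallen in luciferase cells. The difference between the responses was 1.11 (SE 0.09, edgeR adjusted p = 3.66e-11). The size of the response differed between the lines at 5 of the 10 genes, with or without a change of direction (51.5% of all genes). Paics differed by 0.65 (SE 0.08, edgeR adjusted p = 2.92e-08) and Pfas by 0.49 (SE 0.09, edgeR adjusted p = 2.27e-05). Cad rose with antimycin in both lines, by 0.43 (SE 0.06, edgeR adjusted p = 2.24e-06) with LbNOX, and its interaction was -0.04 (SE 0.09). With mitoLbNOX, antimycin raised 5 and lowered 3 (47.7% of all genes), and Gart, Paics and Pfas differed from luciferase cells (31.7%) by 0.39 (SE 0.10, edgeR adjusted p = 0.00184), 0.32 (SE 0.08, edgeR adjusted p = 0.00173) and 0.27 (SE 0.09, edgeR adjusted p = 0.0187).

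Some antimycin calls in these lines changed with the setting. Gart in mitoLbNOX cells, at -0.15 (SE 0.07, edgeR adjusted p = 0.0638), was called lower with DESeq2 size factors (-0.16) and with DESeq2's test (-0.16). With LbNOX the call was lost for Paics with plate position in the model (-0.11) and without the samples numbered 2 (-0.09), for Ppat without the filter (0.18), with only the groups compared (0.18) and without the samples numbered 1, 2 or 3 (0.22, 0.20 and 0.12) and for Umps without the samples numbered 1 or 3 (0.15 and 0.18). Of the differences from luciferase cells, Umps was lost without the filter (0.24) and without the samples numbered 1 or 3 (0.23 and 0.25) and Adsl without the samples numbered 3 (0.17). With mitoLbNOX the call was lost for Atic without the filter (0.24) and without the samples numbered 1 or 2 (0.26 and 0.22), for Ppat without the filter (0.21) and without the samples numbered 1, 2 or 3 (0.22, 0.21 and 0.19) and for Pfas without the filter (-0.19), with only the groups compared (-0.17) and without the samples numbered 2 (-0.12). Its differences from luciferase cells were lost for Gart without the samples numbered 3 (0.33) and for Pfas without the filter (0.25) and without the samples numbered 1 (0.20). Differences were gained for Impdh2 with LbNOX with only the groups compared (0.17) and for Umps with mitoLbNOX with plate position in the model (-0.25).

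**Figure D3:**
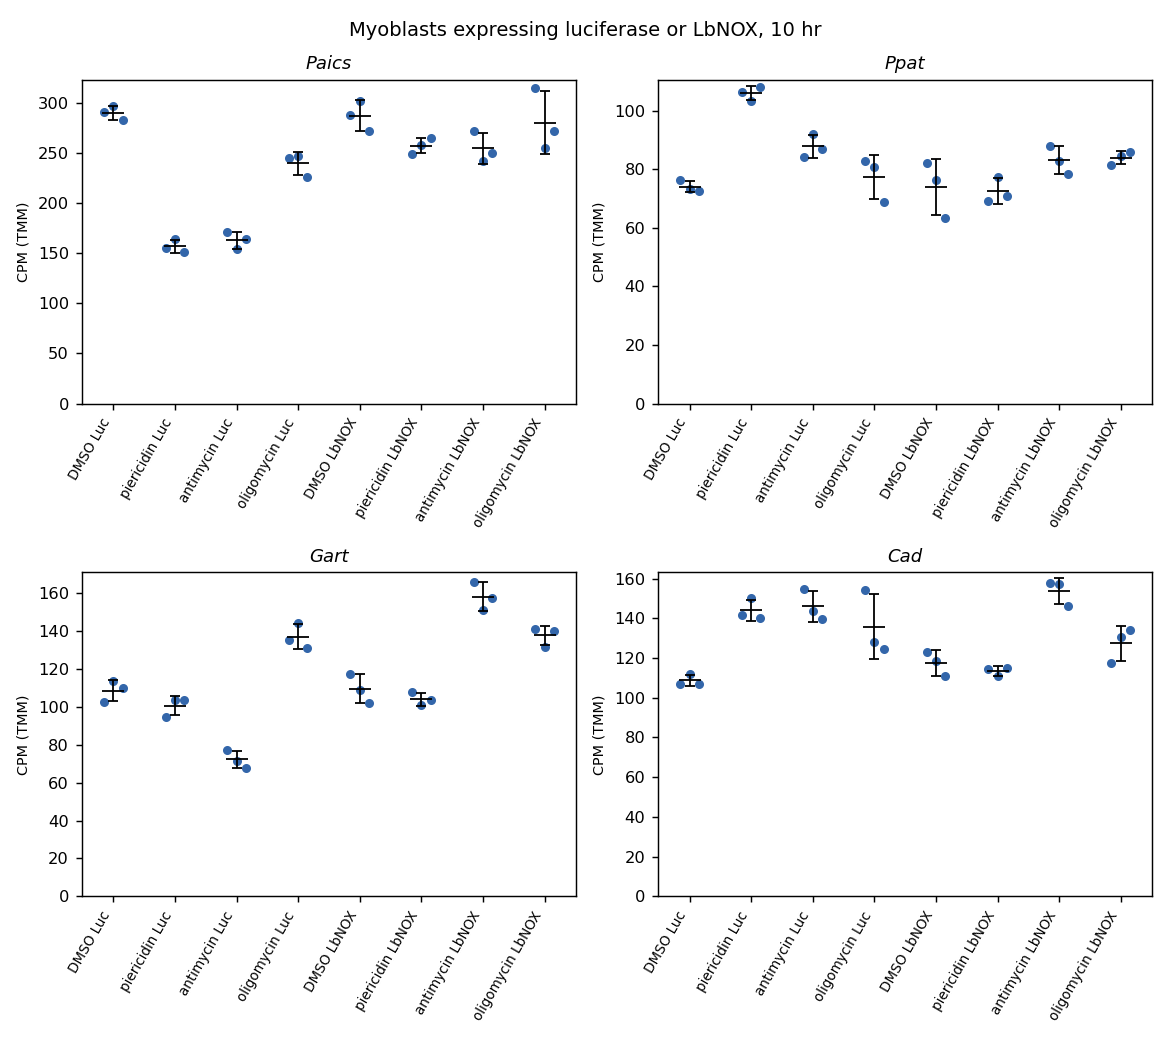
Levels (CPM, TMM-scaled; axes start at 0) of Paics, Ppat, Gart and Cad in luciferase (Luc) and LbNOX myoblasts after 10 hr of treatment. Points are samples (n = 3 per group) and bars are the mean ± SD; Gart with antimycin is below DMSO in luciferase cells and above it in LbNOX cells.

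Oligomycin raised 5 genes and lowered Umps in LbNOX cells (35.2% of all genes), and the response differed from that of luciferase cells at 1 gene, Paics (7.98%). The difference, 0.26 (SE 0.08, edgeR adjusted p = 0.0341), kept its call under 3 of 9 alternatives and lost it with DESeq2 size factors (0.24), without the filter (0.26), with only the groups compared (0.25) and without the samples numbered 1, 2 or 3 (0.18, 0.36 and 0.24). In LbNOX cells Umps, at -0.17 (SE 0.07, edgeR adjusted p = 0.0454), kept its call under 2 of 9 alternatives and lost it with DESeq2 size factors (-0.17), without the filter (-0.19), with DESeq2's test (-0.17), with plate position in the model (-0.15), with only the groups compared (-0.17) and without the samples numbered 2 or 3 (-0.10 and -0.16). Ppat lost its call without the filter (0.20), with only the groups compared (0.21) and without the samples numbered 2 or 3 (0.21 and 0.10), Dhodh without the samples numbered 1 (0.32) and Atic without the samples numbered 1 (0.29), while Cad was called higher with plate position in the model (0.16) and without the samples numbered 1 (0.24). Chloramphenicol, with 2 samples per group, raised 1 of the 10 in luciferase cells (8.45% of all genes). This was Cad, at 92.6 and 96.8 CPM with DMSO and 113 and 112 with chloramphenicol, a log2 fold change of 0.30 (SE 0.07, edgeR adjusted p = 0.037) whose call was lost when any 1 sample of these 2 groups was left out (0.28, 0.31, 0.28 and 0.30), when either chloramphenicol sample of LbNOX cells was (0.30 and 0.29), with a replicate block (0.30) and with only the groups compared (0.30). Where a group was left with 1 sample, that sample is assumed to vary like the other groups. In LbNOX cells 0 of the 10 were called with chloramphenicol by edgeR (0.931% of all genes; 3 at an unadjusted p under 0.05), with Cad at 0.21 (SE 0.07, edgeR adjusted p = 0.286). The interaction was called by edgeR at 0 of the 10 (0.53%; 0 unadjusted), and DESeq2 called 0 in both.

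In myotubes more of the genes were called with oligomycin than with either ETC inhibitor, and the differences between these responses were not tested. Oligomycin raised 8 of the 10, all but Dhodh and Umps, and lowered 0, where 16.9% of 12491 genes were higher and 16.4% lower. The median log2 fold change of the 10 was 0.45, beside -0.01 over all genes. Cad rose from 31.4, 32.7 and 26.9 CPM to 46.9, 48.8 and 56, by 0.74 (SE 0.11, edgeR adjusted p = 1.15e-05). Ppat, Atic and Gart rose by 0.53 (SE 0.10, edgeR adjusted p = 0.000179), 0.49 (SE 0.12, edgeR adjusted p = 0.00232) and 0.46 (SE 0.09, edgeR adjusted p = 0.000423). For the 8 genes, the oligomycin samples were all above the DMSO samples, as for 21.5% of all genes. Dhodh and Umps had values of 0.11 (SE 0.17, edgeR adjusted p = 0.642) and 0.09 (SE 0.11, edgeR adjusted p = 0.579). The call for Pfas, 0.47 (SE 0.14, edgeR adjusted p = 0.0126), was lost with plate position in the model (0.34) and without the samples numbered 1 or 2 (0.39 and 0.47).

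Piericidin raised 1 gene in myotubes, Paics, by 0.18 (SE 0.04, edgeR adjusted p = 0.00153) (8.99% of all genes called). Antimycin raised 4, which were Ppat, Paics, Adsl and Impdh2 (12.9%), with Adsl at 0.30 (SE 0.06, edgeR adjusted p = 0.000825) and Ppat at 0.32 (SE 0.10, edgeR adjusted p = 0.0332). The call for Ppat was lost without the filter (0.31), with DESeq2's test (0.30), with only the groups compared (0.31) and without the samples numbered 1, 2 or 3 (0.36, 0.25 and 0.32), and that for Impdh2 without the filter (0.22) and without the samples numbered 1 or 2 (0.20 and 0.22). Paics with piericidin lost its call without the filter (0.17) and without the samples numbered 1 or 2 (0.16 and 0.18). BAM15 and 5% oxygen each raised Paics and lowered Umps (25.4% and 22.1% of all genes). Umps, the last enzyme of pyrimidine synthesis, had 35.1, 34 and 35.2 CPM with DMSO, 24.6, 27.3 and 25.2 with BAM15 and 24.3, 28.8 and 27.7 at 5% oxygen. The samples of both treatments were all below those with DMSO, with log2 fold changes of -0.43 (SE 0.12, edgeR adjusted p = 0.00863) and -0.37 (SE 0.12, edgeR adjusted p = 0.0248), and both calls were lost without the samples numbered 1 or 3 (-0.40 and -0.41 with BAM15, -0.32 and -0.39 at 5% oxygen). Gart was called lower with BAM15 with only the groups compared (-0.23). The summed proliferation markers were lower in these myotubes at 5% oxygen. There 7 of 7 were called lower, where 22.1% of all genes were called in either direction, and their part in the result was not tested.

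Several of the genes that were higher with oligomycin had lower levels when a further treatment was added. Compared with oligomycin alone, 6 of the 10 were lower with piericidin added (12.4% of all genes lower), 7 with BAM15 added (14.1%) and 6 at 5% oxygen (16.5%), and 0 were higher. These comparisons use the same oligomycin samples in which the genes had been called higher, so they are not independent of that result. The counts with BAM15 and at 5% oxygen include Umps, which was not called with oligomycin against DMSO. Cad had 27.4, 33.7 and 39.3 CPM with piericidin added, 26.7, 29 and 28.5 with BAM15 and 30.3, 29 and 34.6 at 5% oxygen. All were below the oligomycin samples, with log2 differences of -0.60 (SE 0.11, edgeR adjusted p = 0.000252), -0.85 (SE 0.11, edgeR adjusted p = 2.12e-06) and -0.68 (SE 0.11, edgeR adjusted p = 3.64e-05). Atic was lower with BAM15, at -0.71 (SE 0.12, edgeR adjusted p = 5.75e-05), and with piericidin, at -0.49 (SE 0.12, edgeR adjusted p = 0.00382), and had a value of -0.26 (SE 0.12, edgeR adjusted p = 0.0992) at 5% oxygen. Dhodh, Paics and Pfas did not pass in any of the 3, and Pfas had values of -0.30 (SE 0.14), -0.33 (SE 0.14) and -0.31 (SE 0.14). With piericidin added, the call was lost for Ppat without the filter (-0.31) and without the samples numbered 1 or 3 (-0.24 and -0.31), for Gart with only the groups compared (-0.33) and without the samples numbered 2 (-0.14) and for Atic without the samples numbered 2 (-0.46). Adsl lost its call there without the filter (-0.20), with only the groups compared (-0.20) and without the samples numbered 1 or 3 (-0.20 and -0.18), and Impdh2 without the filter (-0.15), with plate position in the model (-0.14), with only the groups compared (-0.16) and without the samples numbered 1 or 2 (-0.10 and -0.16). Umps was lost with BAM15 added without the samples numbered 1 (-0.37) and at 5% oxygen with only the groups compared (-0.36) and without the samples numbered 1 or 2 (-0.31 and -0.25). At 5% oxygen, 0 of the 10 were called with oligomycin against DMSO (edgeR; 4.26% of all genes), with Cad at 0.23 (SE 0.12, edgeR adjusted p = 0.368). Unadjusted, 1 passed 0.05, and DESeq2 called 0.

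**Figure D4:**
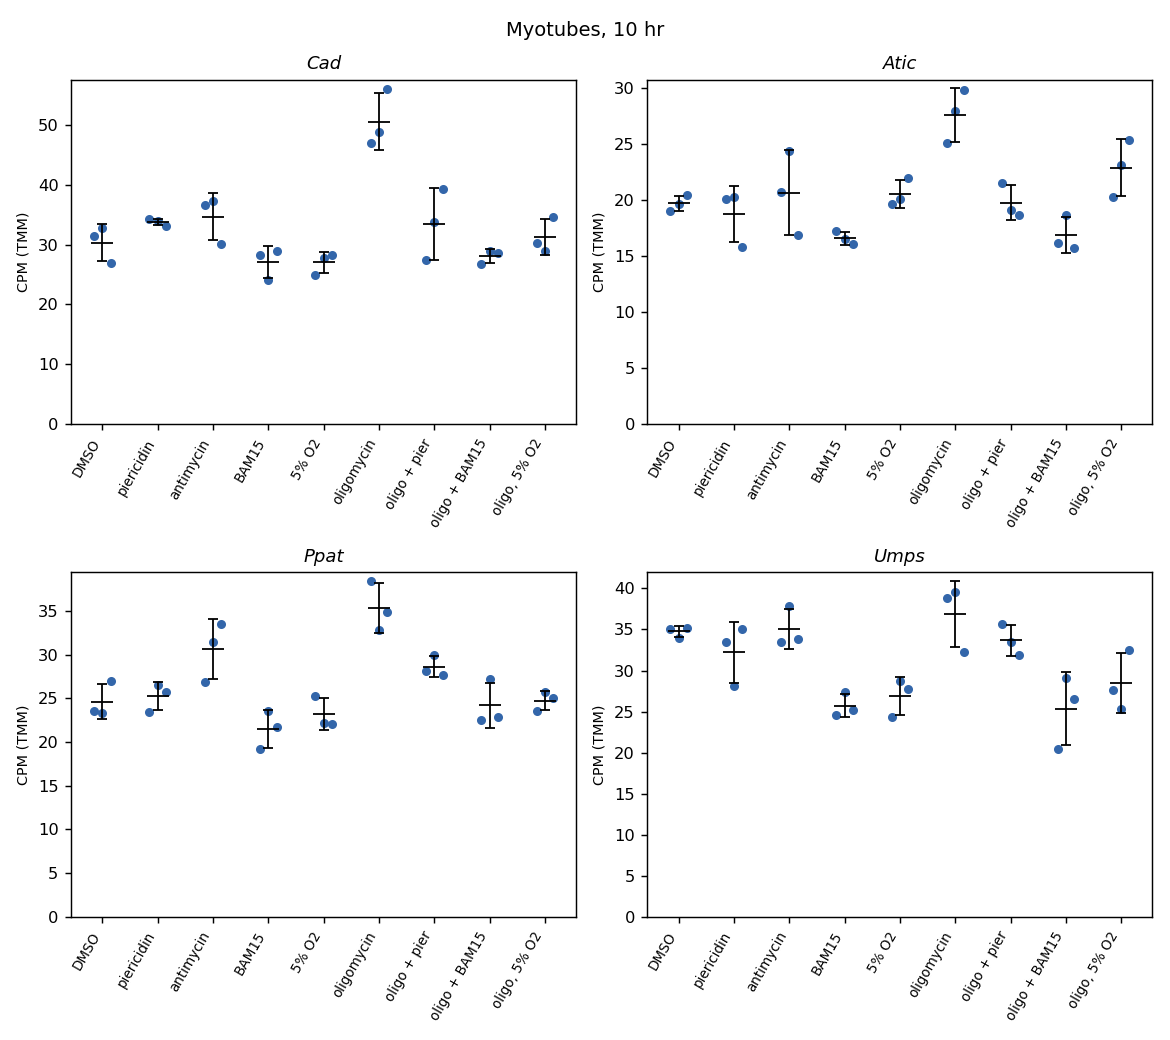
Levels (CPM, TMM-scaled; axes start at 0) of Cad, Atic, Ppat and Umps in untransduced myotubes after 10 hr of each treatment. Points are samples (n = 3 per group) and bars are the mean ± SD; Cad with oligomycin alone lies above all other groups.

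The oligomycin response was also present in transduced myotubes. In GFP myotubes, with 2 samples per group, oligomycin raised 7 of the 10 (13.8% of 12397 genes higher), and in LbNOX myotubes it raised 7 (16.6%). Cad had 25.2 and 32.8 CPM with DMSO and 49.3 and 49.1 with oligomycin in GFP myotubes, and 28.6, 27.9 and 27.9 and 46.2, 49.8 and 54 in LbNOX myotubes. It rose by 0.75 (SE 0.13, edgeR adjusted p = 0.000588) and 0.82 (SE 0.11, edgeR adjusted p = 3.27e-05). Dhodh and Umps were not called in either. The GFP samples are numbered 1 or 2, so that leaving out either number leaves 1 sample in each group, which is assumed to vary like the other groups. In GFP myotubes the call was then lost for Ppat without the samples numbered 1 (0.54) and for Gart without the samples numbered 1 or 2 (0.50 and 0.58). Pfas lost its call with only the groups compared (0.55) and without the samples numbered 1 or 2 (0.69 and 0.35). Paics lost it without the filter (0.20), with only the groups compared (0.20), without the samples numbered 1 or 2 (0.23 and 0.14) and without those numbered 3 (0.18), none of which is a GFP sample. In LbNOX myotubes it was lost for Gart without the samples numbered 1, 2 or 3 (0.31, 0.33 and 0.31), for Pfas without the samples numbered 1 or 3 (0.33 and 0.45), for Atic without the samples numbered 2 (0.48) and for Impdh2 without the samples numbered 1 or 2 (0.21 and 0.20). With plate position in the model, Impdh2 was called higher in GFP myotubes (0.20) and Paics in LbNOX myotubes (0.13). Between LbNOX and GFP myotubes under DMSO, 0 of the 10 were called (edgeR; 0.0242% of all genes), and with piericidin 0 were called in GFP (3.09%) and 0 in LbNOX myotubes (6.78%). Unadjusted, 1, 3 and 1 passed 0.05 in these 3 comparisons, and DESeq2 called 0, 1 and 0. The 1 was Paics (0.23), also called with plate position in the model (0.22).

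Post-mitotic cells at 24 hr of low serum were compared with their own DMSO samples, and the difference from the response of myotubes was not tested. Oligomycin raised 3 of the 10 (10.6% of 11827 genes higher), Paics by 0.25 (SE 0.05, edgeR adjusted p = 0.00331), Atic by 0.47 (SE 0.10, edgeR adjusted p = 0.00606) and Impdh2 by 0.19 (SE 0.05, edgeR adjusted p = 0.0235). The call was lost for Atic without the samples numbered 1 (0.37) and for Impdh2 without the filter (0.17) and without the samples numbered 2 or 3 (0.15 and 0.17), and Pfas was gained without the samples numbered 3 (0.49). With piericidin 0 were called (edgeR; 2.75% of all genes), 3 passed an unadjusted p of 0.05, and DESeq2 called 0. Atic had 17.4, 18.7 and 17.2 CPM with DMSO, 22.5, 22 and 21.3 with piericidin and 26.9, 23.5 and 21.9 with oligomycin. The piericidin samples were all above the DMSO samples, at 0.31 (SE 0.10, edgeR adjusted p = 0.143).

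Whether the responses differed between myotubes and luciferase myoblasts was tested as an interaction of treatment and state. With piericidin 5 of the 10 differed (46.5% of all genes), with antimycin 3 (47.9%) and with oligomycin 5 (29%). Paics differed with all 3, by 1.08 (SE 0.06, edgeR adjusted p = 3.32e-14), 1.04 (SE 0.06, edgeR adjusted p = 8.36e-14) and 0.56 (SE 0.06, edgeR adjusted p = 8.32e-08). It was lowered by each inhibitor in myoblasts and raised by each in myotubes. Gart differed with antimycin, by 0.80 (SE 0.10, edgeR adjusted p = 1.71e-07), and Atic with piericidin, by -0.60 (SE 0.15, edgeR adjusted p = 0.00198). Cad differed with oligomycin, by 0.41 (SE 0.13, edgeR adjusted p = 0.0221), a call lost with plate position in the model (0.33) and without the samples numbered 2 or 3 (0.43 and 0.22). With piericidin the call was lost for Umps without the samples numbered 2 (-0.33) and for Pfas without the filter (0.31), with DESeq2's test (0.31) and without the samples numbered 1 or 2 (0.28 and 0.25), and with oligomycin for Ppat without the samples numbered 1 or 2 (0.39 and 0.50) and for Pfas without the filter (0.44) and without the samples numbered 1 (0.38). Calls were gained with piericidin for Adsl with DESeq2 size factors (-0.20), with DESeq2's test (-0.20) and without the samples numbered 3 (-0.31), for Cad without the samples numbered 3 (-0.39) and for Dhodh without the samples numbered 1 (-0.69), with antimycin for Adsl with plate position in the model (0.25) and with oligomycin for Umps without the samples numbered 3 (0.38).

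Across the 35 conditions, condition means of the 10 genes correlated with a median Pearson's r of 0.94 over 45 pairs of genes. These means share the difference between proliferating and post-mitotic cells. Paics stood apart, with r from 0.21 with Adsl to 0.53 with Pfas, whereas the lowest pair without Paics was Pfas with Adsl, at 0.84. Within the 13 conditions of myoblasts treated for 10 hr the median was 0.12 and 18 of the 45 pairs were negative, and within the 9 conditions of untransduced myotubes it was 0.65, with 8 negative. The genes whose profile was most like the mean of the 10 over 35 conditions were Fkbp4, Set, Nup43, Nap1l1 and Nsd2, each with an r of 0.99. In the 13 myoblast conditions they were Rsrp1, Psma4, Prdx3, Etfrf1 and Ppa1, with r from 0.94 for Rsrp1 to 0.90 for Ppa1. For Dhodh alone they were Nap1l1, Gm9320, Set, Emg1 and Lce1g over 35 conditions and Bola2, Rpl36al, Rcc2, Hint1 and Sdhaf1 in myoblasts.

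Genes that supply or use the products of these pathways moved in several ways, and their counts are read beside those over all genes, of which piericidin raised 30.9% and lowered 30.8% in luciferase myoblasts. Of 5 genes that make one-carbon units for the purine ring, 4 rose with each of piericidin, antimycin and oligomycin in luciferase myoblasts and 5 rose with oligomycin in myotubes, where 30.9%, 32.1%, 24.5% and 16.9% of all genes rose. Mthfd2, a mitochondrial folate enzyme, rose by 1.81 (SE 0.05, edgeR adjusted p = 2.78e-24) with piericidin and 1.58 (SE 0.07, edgeR adjusted p = 4.11e-15) with oligomycin in myotubes, and Shmt2, which draws one-carbon units from serine, by 1.62 (SE 0.05, edgeR adjusted p = 2.66e-23) and 1.31 (SE 0.05, edgeR adjusted p = 6.53e-16). The list had a median log2 fold change of 1.38 with piericidin, beside -0.00368 over all genes. Of 4 genes that supply phosphoribosyl pyrophosphate, piericidin raised 1 and lowered 3 (median -0.48). Prps1 and Prps2 are synthetase isoforms, and Prps1 rose by 0.43 (SE 0.09, edgeR adjusted p = 0.000142) while Prps2 fell, with a log2 fold change of -1.33 (SE 0.12, edgeR adjusted p = 7.45e-11). Of 5 genes of aspartate supply, piericidin raised 2 and lowered 3 (median -1.11), with the cytosolic transaminase Got1 at 1.94 (SE 0.08, edgeR adjusted p = 4.83e-19) and the aspartate transporter Slc1a3 at -2.27 (SE 0.23, edgeR adjusted p = 1.07e-09).

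Of 4 genes of the AMP and GMP branches, piericidin raised 3 and lowered 0 (median 0.39). Gmps, which makes GMP, rose by 0.49 (SE 0.05, edgeR adjusted p = 3.65e-10), and Adss, which leads to AMP, by 0.30 (SE 0.06, edgeR adjusted p = 0.00011). Adssl1, its muscle isoform, was higher in myotubes than in myoblasts by 5.66 (SE 0.43, edgeR adjusted p = 1.29e-12). Of 3 purine salvage genes 2 fell with piericidin (median -0.28), with Adk at -0.53 (SE 0.09, edgeR adjusted p = 5.98e-06) and Aprt at -0.28 (SE 0.04, edgeR adjusted p = 2.99e-07), and 2 rose with oligomycin in luciferase myoblasts (24.5% of all genes). Of 7 genes of pyrimidine conversion and salvage 3 rose and 3 fell with piericidin (median 0.02), with Ctps2 at -1.44 (SE 0.11, edgeR adjusted p = 2.19e-12) and Uprt at 1.04 (SE 0.18, edgeR adjusted p = 1.04e-05). The deoxynucleotide genes were mostly lower, with 7 of 9 lower with piericidin, 8 with antimycin and 7 with oligomycin in luciferase myoblasts, against 30.8%, 31.1% and 26.3% of all genes, and the median with piericidin was -0.74. Tk1, thymidine kinase, had -2.63 (SE 0.06, edgeR adjusted p = 1e-25) with piericidin, and Rrm2b, a p53-induced ribonucleotide reductase subunit, was higher by 1.08 (SE 0.16, edgeR adjusted p = 1.16e-06).

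Regulators and markers were read beside them and against the same shares of all genes. Of 7 tested genes of the MYC family, which includes activators and antagonists, piericidin raised 4 and lowered 3 (median 0.56). Myc rose by 1.89 (SE 0.06, edgeR adjusted p = 5.36e-22) with piericidin, 2.50 (SE 0.06, edgeR adjusted p = 5.01e-25) with antimycin and, in myotubes, 1.74 (SE 0.09, edgeR adjusted p = 7.25e-14) with oligomycin, and Mxd3, an antagonist, fell by 2.78 on the log2 scale (SE 0.14, edgeR adjusted p = 1.27e-16) with piericidin. All 6 markers of the integrated stress response (ISR) rose with each inhibitor in luciferase myoblasts and with oligomycin in myotubes (30.9%, 32.1%, 24.5% and 16.9% of all genes), and Atf3 rose by 7.33 (SE 0.21, edgeR adjusted p = 6.55e-23) with piericidin, where the list had a median of 4.18. Of 6 p53 effectors 3 rose and 1 fell with piericidin (median 0.34), with Sesn2 at 2.49 (SE 0.10, edgeR adjusted p = 1.39e-19). Of 7 proliferation genes 6 were lower with piericidin, 7 with antimycin and 6 with oligomycin in luciferase myoblasts, and 7 of 7 were lower in myotubes than in myoblasts (30.8%, 31.1%, 26.3% and 33.7% of all genes), with medians of -0.79 with piericidin and -3.09 in myotubes. Of 3 myoblast genes, Myf5 rose by 2.39 (SE 0.13, edgeR adjusted p = 7.14e-16) with piericidin, and Myod1 and Pax7 were lower, at -0.66 (SE 0.07, edgeR adjusted p = 1.13e-09) and -1.82 (SE 0.48, edgeR adjusted p = 0.0016). The part of these lists in the results for the 10 genes was not tested.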

How the data were processed

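Smart-seq2 libraries were prepared at a sequencing facility from polyA RNA that the authors isolated from 96 C2C12 samples. Reads were pseudo-aligned with bias-corrected kallisto 0.44 to ENSEMBL 93 (GRCm38.p6) and 4 transgenes, 2 flow cells were added together, and tximport gave gene totals. The submitters' processing notes also name bcl2fastq 2.20.0.422 and mm10. The deposited values are estimated counts, whole numbers without normalization. Kallisto divides reads shared by transcripts, so overlapping genes can share error.

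Groups and replicate numbers came from the sample titles. In 6 models holding 46 comparisons, a gene was tested if some condition had 16 or more counts in each of its replicates. The test was that of edgeR 4.0.16 (R 4.3.3; TMM, quasi-likelihood F test), Benjamini-Hochberg adjusted over all genes of a comparison, at a threshold of 0.05. Each SE was taken as the size of the log2 change over root F. Levels are CPM with TMM factors over all 96 samples. The 10 members and the 14 lists (80 genes) were chosen with earlier results of these data known, and counts for lists are descriptions. Named genes are the 10 members, up to 3 genes per list by size of change among those called, and 5 genes per profile. Profiles are log2(CPM + 0.5) condition means of genes averaging at least 50 counts. Alternatives were DESeq2 1.42.0 size factors and Wald test, no filter, replicate number as a block, only the groups compared, plate position, and leaving out replicates. The scripts were tested on simulated data. Of 87 replicate pairs, 0 were identical. Gene positions are from GENCODE M21.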

Additional observations from a re-analysis of the deposited data

Results flagged for a closer look

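For 44 combinations of gene and contrast, the test of the difference between responses passed an adjusted p of 0.05 (edgeR). All values here are log2 differences between the response in the named cells and that in luciferase myoblasts, and all share the luciferase samples. With LbNOX, the piericidin response differed by -0.47 for Cad, -0.41 for Dhodh, -0.42 for Umps, -0.55 for Ppat, 0.72 for Paics, -0.25 for Adsl, -0.50 for Atic and -0.25 for Impdh2. With mitoLbNOX it differed by -0.38 for Cad, -0.43 for Dhodh, -0.34 for Umps, -0.56 for Ppat, 0.75 for Paics and -0.54 for Atic. With NDI1 it differed by -0.47 for Cad, -0.51 for Dhodh, -0.38 for Umps, -0.56 for Ppat, 0.75 for Paics, -0.41 for Adsl, -0.68 for Atic and -0.28 for Impdh2. Paics alone carried a positive sign among those called for piericidin in these 3 lines. It was also the only member called lower with piericidin in luciferase cells, whose response is subtracted.

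The antimycin response differed with LbNOX by 0.27 for Umps, 1.11 for Gart, 0.65 for Paics, 0.49 for Pfas and 0.29 for Adsl, and with mitoLbNOX by 0.39 for Gart, 0.32 for Paics and 0.27 for Pfas. The oligomycin response differed with LbNOX by 0.26 for Paics. In myotubes, the piericidin response differed by -0.38 for Umps, -0.46 for Ppat, 1.08 for Paics, 0.33 for Pfas and -0.60 for Atic, and the antimycin response by 0.80 for Gart, 1.04 for Paics and 0.68 for Pfas. The oligomycin response differed in myotubes by 0.41 for Cad, 0.45 for Ppat, 0.56 for Paics, 0.45 for Pfas and 0.31 for Impdh2.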

How the results depend on the processing

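Of 46 counts of called genes, most stayed within 1.5 times of the value in the report under each alternative, and of the log2 fold changes of single genes 0 of those called changed direction under any alternative run. With plate position as a covariate, piericidin called 2 genes in mitoLbNOX myoblasts in place of 1 and 1 in GFP myotubes in place of 0, and DESeq2's Wald test also called 1 in the latter. Without the filter on low counts, antimycin in mitoLbNOX myoblasts called 5 in place of 8, antimycin in myotubes 2 in place of 4, piericidin in myotubes 0 in place of 1 and piericidin added to oligomycin 3 in place of 6, the last also 3 with only the groups compared. The oligomycin interaction with LbNOX went from 1 to 0 with DESeq2 size factors, without the filter and with only the groups compared. Chloramphenicol in luciferase myoblasts went from 1 to 0 with only the groups compared and with replicate number as a block. The cause was not tested.

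Leaving out replicates gave 4 to 8 called genes for antimycin in luciferase myoblasts and 5 to 7 in mitoLbNOX myoblasts, and 0 to 0 for piericidin in mitoLbNOX myoblasts. The piericidin interaction ranged from 3 to 7 with LbNOX and from 2 to 8 with NDI1, the antimycin interaction with LbNOX from 3 to 5 and the oligomycin interaction from 0 to 0. In myotubes the ranges were 0 to 1 for piericidin, 2 to 3 for antimycin, 1 to 2 for BAM15 and for 5% oxygen and 3 to 4 for piericidin added to oligomycin, and for oligomycin 3 to 6 with GFP and 4 to 5 with LbNOX. Chloramphenicol ranged from 0 to 1, and the interactions of state ranged from 3 to 7 with piericidin and from 3 to 5 with oligomycin. The models with fewer samples have less power by construction.

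Replicate numbers paired the samples weakly if at all. Deviations of same-numbered samples from different groups had mean correlations from -0.04 to 0.03, beside -0.02 to 0.04 for other numbers. Samples closest to their own number were 19 of 37 in the 10 hr myoblast model and 17 of 33 in that of cell states. They were 9 of 27 in untransduced and 0 of 15 in transduced myotubes, 3 of 9 in 24 hr low-serum cells and 2 of 8 with chloramphenicol. Over 460 tests of single genes the replicate block lost 2 calls and gained 0. Plate position could not be fitted for the 24 hr low-serum model, where all 9 samples lay in outer wells. With DESeq2 size factors, the median over all genes moved by at most 0.04 on the log2 scale. Leaving Dhodh out of the mean profile kept 4 of the 5 nearest genes over all conditions and 3 of 5 in myoblasts. Dhodh had the lowest counts of the 10, from 75 to 354 per sample.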
